A study of Homo sapiens with 5 samples.

Results

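Histone genes were taken from the deposited count table by symbol: the replication-dependent genes of the HIST1 to HIST4 clusters, and the variant genes of the H2A, H3 and H1 families (H2AFX, H2AFY, H2AFY2, H2AFZ, H2AFV, H3F3A, H3F3B, H1F0 and H1FX). The symbol rule found 93 of the 57221 rows, of which 68 were replication-dependent genes, 9 were variant genes and 16 were pseudogenes. The cells were NK92MI, a human natural killer cell line that makes its own interleukin 2 from an introduced gene. They had been cultured for 48 h with the solvent DMSO (2 libraries) or with 10 µM UNC1999 (3 libraries), an inhibitor of EZH2 and EZH1, the enzymes that methylate histone H3 on lysine 27. Both groups are the same cell line in the same medium, with no other allele or agent named in the labels, and 1 cell line is not a sample of donors. The comparison asks how transcripts of these genes differ after the inhibitor.

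Replication-dependent histone genes supply the bulk of nucleosomes during S phase. Their mRNAs carry no introns and normally end just after a conserved stem-loop instead of a poly(A) tail, and the stem-loop binding protein SLBP carries them through processing, translation and decay. Variant histones such as H2A.Z, macroH2A and H3.3 are made outside S phase as well, from polyadenylated mRNAs, and are put into chromatin by their own chaperones. How RNA was selected for these libraries is not given in the sources used, and a selection for poly(A) tails would capture little of a tail-less mRNA.

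The stem-loop is shown for 6 members that stand for its forms in families H2A, H2B and H4 and in the variant H2AFX, because it marks which annotated transcripts can end without a tail. It was searched by its known consensus in the transcripts of GENCODE 29 (GRCh38) and was found in 295 of 57133 gene symbols (0.516%). Of the 68 replication-dependent genes, 32 held it. Among the 9 variant genes only H2AFX did. Capitals mark the 16 bases of the stem-loop, written as DNA letters from 5′ to 3′:
HIST2H2BE: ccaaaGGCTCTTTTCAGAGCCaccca
HIST1H2BH: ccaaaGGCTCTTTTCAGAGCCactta
HIST1H2AC: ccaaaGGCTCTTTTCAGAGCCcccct
HIST4H4: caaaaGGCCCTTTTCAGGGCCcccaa
HIST1H4I: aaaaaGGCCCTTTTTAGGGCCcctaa
H2AFX: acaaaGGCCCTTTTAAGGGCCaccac
The 3 H2A and H2B genes shown had the same 16 bases, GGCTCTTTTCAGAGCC, which 17 replication-dependent genes shared. HIST4H4 had a form found in 5 genes, all of family H4. Another 36 replication-dependent genes had no match in their GENCODE transcripts, many of which hold coding sequence alone. No match says only that these letters are not in the annotated transcript.

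In 22 of the 32 genes with the stem-loop, an annotated transcript ran at least 200 bases past it, as a polyadenylated form would. Of these 22 genes, 15 (68.2%) reached the minimum for testing, which was 10 counts in at least 2 of the 5 libraries. Of the 10 genes whose loop-bearing transcripts ended within 200 bases of the loop, 3 (30.0%) reached it, and of the 36 without a match, 12 (33.3%) did. Among those 3, HIST1H2BC and HIST1H2BD also have longer annotated transcripts (659 and 789 bases) than the ones with the loop (571 and 496 bases). The split into 22 and 10 genes is therefore not clean. The loop-bearing transcripts of the 22 genes were also longer than those of the 10. Among the 10, HIST1H2AI, HIST1H4J, HIST2H2AA3 and HIST2H2AA4 had most of their sequence in common with copies. The shares of genes that reached the minimum describe which members were measurable and were not tested. Nor was the part that length or copies had in them.

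Promoters of 66 of the 77 replication-dependent and variant genes were matched in RefSeq (GRCh38.p14). The 160 bases before the start are shown for the 3 replication-dependent linker histone genes called higher, whose boxes stand at nearly the same places. HIST2H2BE, H2AFX and H2AFZ are shown beside them as a core histone gene, a variant gene that rose and a variant gene that fell. Positions are chr6:26056471-26056630 (minus strand), chr6:26234988-26235147 (minus strand), chr6:26156169-26156328 (plus strand), chr1:149886683-149886842 (minus strand), chr11:119095466-119095625 (minus strand) and chr4:99950276-99950435 (minus strand). Capitals mark the CCAAT box (CCAAT), the TATA box (TATAAA), the H1 box of linker histone promoters (AAACACA) and the octamer of H2B promoters (ATGCAAAT), on either strand:
HIST1H1C: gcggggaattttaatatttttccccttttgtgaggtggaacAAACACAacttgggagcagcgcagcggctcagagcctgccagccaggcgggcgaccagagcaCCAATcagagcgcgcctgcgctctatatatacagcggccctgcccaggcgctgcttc
HIST1H1D: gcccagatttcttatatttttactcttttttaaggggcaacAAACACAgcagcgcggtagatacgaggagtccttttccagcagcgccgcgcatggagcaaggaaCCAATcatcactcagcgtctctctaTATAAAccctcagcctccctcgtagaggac
HIST1H1E: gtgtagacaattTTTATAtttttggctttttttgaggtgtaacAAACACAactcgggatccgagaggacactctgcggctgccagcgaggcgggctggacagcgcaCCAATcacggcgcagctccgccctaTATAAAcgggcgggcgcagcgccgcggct
HIST2H2BE: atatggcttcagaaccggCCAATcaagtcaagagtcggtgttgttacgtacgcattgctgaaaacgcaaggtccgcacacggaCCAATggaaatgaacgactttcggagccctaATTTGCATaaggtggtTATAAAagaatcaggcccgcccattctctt
H2AFX: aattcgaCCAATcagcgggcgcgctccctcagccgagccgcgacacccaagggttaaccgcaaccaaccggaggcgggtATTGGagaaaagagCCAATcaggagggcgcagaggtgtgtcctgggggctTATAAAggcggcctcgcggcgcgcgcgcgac
H2AFZ: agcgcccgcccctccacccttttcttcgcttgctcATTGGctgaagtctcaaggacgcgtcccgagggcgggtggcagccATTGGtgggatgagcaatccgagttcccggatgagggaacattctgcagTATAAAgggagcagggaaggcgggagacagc
The linker variant H1FX, not shown, had TATAAA but neither the H1 box nor CCAAT. The H1 box began 119 bases before the start in HIST1H1C and HIST1H1D, and 117 bases before it in HIST1H1E. A CCAAT box followed, at 57, 55 and 54 bases before the start. Over the full window of 250 bases before to 50 after the start, searched on both strands, AAACACA stood in 6 of 6 H1 promoters, 3 of 52 other replication-dependent promoters and 0 of 8 variant promoters, against 5.6% of 35116 promoters. The octamer ATGCAAAT stood in 9 of 13 H2B promoters (69.2%) and 1.8% of all promoters. It also stood in 12 of 45 other replication-dependent promoters (26.7%) and 1 of 8 variant promoters. CCAAT was found in 48 of 58 replication-dependent promoters (82.8%) and 5 of 8 variant promoters, against 34.6% of all, and TATAAA in 39 of 58 (67.2%) and 4 of 8, against 11.5%. The windows are not all separate: HIST1H2AD and HIST1H3D share a window, and those of some head-to-head genes overlap. A TATAAA match could also lie far from the start, as the only match of HIST1H2BM did, 219 bases before it. No motif searched contains another, and a match is a description of the sequence, not a bound site.

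Each library held between 8442908 and 8748106 counts assigned to genes. UNC1999 replicate 2 stood apart within its group: its chi-square per degree of freedom was 8.06 against replicate 1 and 9.44 against replicate 3, while replicates 1 and 3 gave 1.86 and the DMSO libraries 3.28. Markers of natural killer cells were present, with 13 of 14 detected (NCR3 was at 0) and a summed level of 6930 to 7580 CPM (read counts scaled to library size with TMM factors). Among them CD7 was called higher with UNC1999 (log2 fold change 0.84, edgeR adjusted p = 8.05e-06). T cell markers, nearly all CD3E and TRAC, summed to 755 and 793 CPM with DMSO and 743, 651 and 719 CPM with UNC1999, while CD3D, CD3G, CD4, CD8B and THEMIS were at 0. TRAC was called lower (-0.37, edgeR adjusted p = 0.00823) and CD3E was not called, and the part of these markers in the histone values was not tested. B cell markers summed to 17.3 to 25.6 CPM (MS4A1 at 0), and monocyte, erythroid and fibroblast markers to 6.94 CPM at most. The labels name no separate cultures, and p-values here therefore measure the spread between these 5 samples alone, which may be technical. In bulk RNA, fewer cells in a state and less RNA per cell cannot be told apart.

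All 7 tested variant genes changed, some upwards and some downwards. They were called by edgeR's quasi-likelihood test at an adjusted p under 0.05. With UNC1999, 2 were higher (H1FX and H2AFX) and 5 were lower (H2AFZ, H2AFY, H3F3B, H3F3A and H2AFV), and in all 7 the groups did not overlap. Over all 13137 tested genes 15.7% were called higher, 19.4% lower and 35.0% either way, and the groups did not overlap in 54.5%. The median log2 fold change was -0.36 over the 7 genes and -0.01 over all tested genes.

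H2AFZ encodes H2A.Z.1, a variant placed at promoters by the SRCAP and p400 complexes. Its level was 776 and 733 CPM in the DMSO libraries and 450.0, 566 and 432 CPM in the UNC1999 libraries. Every UNC1999 library lay below both DMSO libraries, with replicate 2 nearest to them. The log2 fold change was -0.64 with an SE of 0.11 (edgeR adjusted p = 3.06e-05). AC097460.1 overlaps H2AFZ on the opposite strand, and 10.9% of the 50-base stretches of H2AFZ occur in AC097460.1 or H2AFZP3. The strand setting of the counting is not given, so some reads may not belong to H2AFZ. H2AFV, which encodes the second H2A.Z protein, H2A.Z.2, had 163 and 162 CPM with DMSO and 121, 137 and 130 CPM with UNC1999. It fell by 0.33 on the log2 scale (SE 0.11, edgeR adjusted p = 0.0144). The fall of H2AFV depended on how GC content and transcript length were handled, as given below. H2AFV was also not called with upper-quartile factors or without normalization factors.

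H2AFY encodes macroH2A1, a variant with a large extra domain that is found on the inactive X chromosome and in silent regions. Its level was 910 and 889 CPM with DMSO and 646, 651 and 615 CPM with UNC1999. These values lay close together within each group and apart between the groups. The log2 fold change was -0.50 with an SE of 0.10 (edgeR adjusted p = 0.000281). The gene C5orf66 lies on the opposite strand over it and shared 29.8% of the 50-base stretches of H2AFY transcripts. C5orf66 was also called lower (log2 fold change -0.57, edgeR adjusted p = 8.49e-05). Since the strand setting of the counting is not given, reads from the shared stretches cannot be told apart. Their part in the fold change of H2AFY was not tested.

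H3F3A and H3F3B encode the same protein, H3.3, which replaces H3 outside replication. H3F3B was at 839 and 887 CPM with DMSO and at 588, 714 and 607 CPM with UNC1999, a log2 fold change of -0.44 with an SE of 0.11 (edgeR adjusted p = 0.00165). H3F3A was at 99.6 and 111 CPM with DMSO and at 72.8, 94.5 and 77.9 CPM with UNC1999, a log2 fold change of -0.36 with an SE of 0.12 (edgeR adjusted p = 0.0135). With GC and length offsets from the longest transcript H3F3B was at -0.07 and not called (edgeR adjusted p = 0.456). In both genes the groups did not overlap, and UNC1999 replicate 2 was the nearest of its group to DMSO. Both genes are spanned in part by genes on the opposite strand (UNK over H3F3B, AL512343.2 over H3F3A). UNK itself was not called (log2 fold change 0.04, edgeR adjusted p = 0.820).

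H2AFX encodes H2AX, which is phosphorylated beside DNA breaks, and its mRNA is made both with the stem-loop end shown above and with a poly(A) tail. The gene was at 246 and 271 CPM with DMSO and at 343, 283 and 364 CPM with UNC1999. Replicate 2 again lay nearest to DMSO, this time on the upper side. The gene rose by a log2 fold change of 0.35 with an SE of 0.12 (edgeR adjusted p = 0.0156). H1FX, a linker histone variant, was at 29.6 and 34.3 CPM with DMSO and at 48.2, 44.6 and 48.6 CPM with UNC1999. It rose by 0.56 ± 0.12 (SE, edgeR adjusted p = 0.000521). The antisense gene H1FX-AS1 overlaps it, holds 17.2% of its 50-base stretches and was called higher too (0.64, edgeR adjusted p = 0.000502). Without a known strand setting, reads from these shared stretches cannot be told apart. Their part in the fold change of H1FX was not tested.

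**Figure D1:**
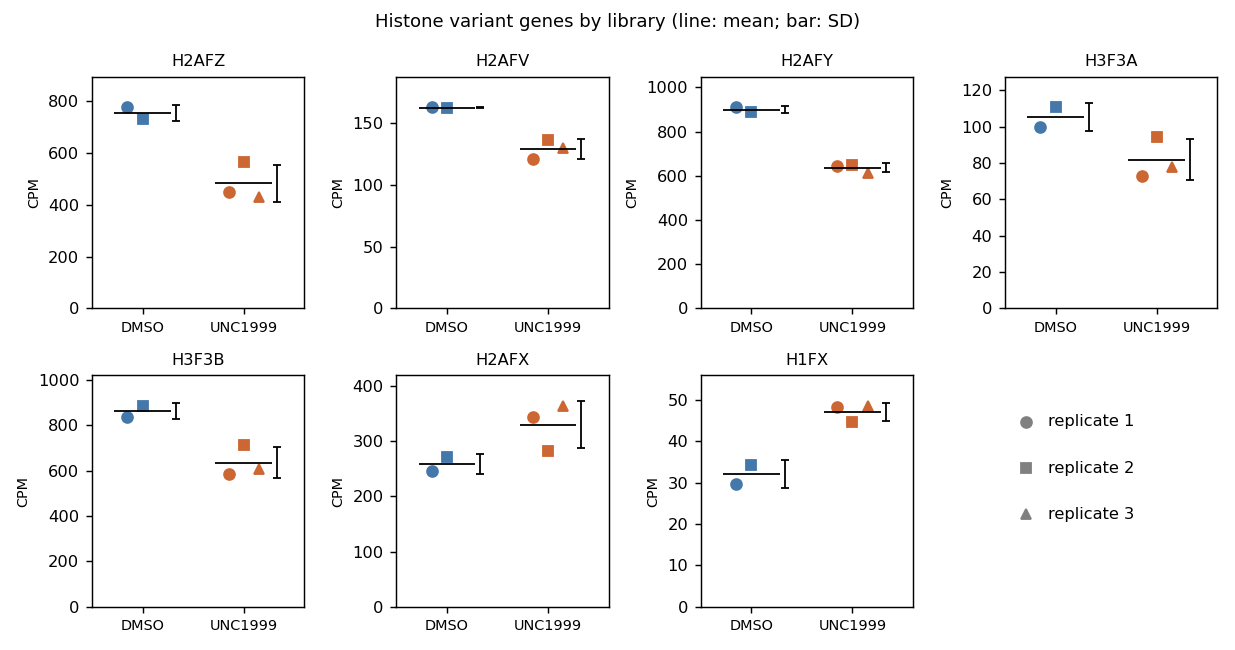
Level of each tested variant gene in CPM (vertical axis, from 0) in the 2 DMSO and 3 UNC1999 libraries, with symbols for the replicates, a line at the mean and a bar for the SD. H2AFZ, H2AFV, H2AFY, H3F3A and H3F3B lie lower with UNC1999 and H2AFX and H1FX higher, with no overlap between the groups.

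The remaining 2 variant genes were below the minimum for testing. H2AFY2, which encodes macroH2A2, had 7 and 9 counts with DMSO and 6, 4 and 2 with UNC1999. H1F0, the linker histone of resting and differentiated cells, had 1 count in 1 DMSO library and 0 in the other 4 libraries. Where a library holds 0 counts, up to 3 counts (0.327 to 0.373 CPM) remain possible from counting error, the only error this limit covers. Summed over the 9 variant genes, the level was 3064 and 3089 CPM with DMSO and 2269, 2489 and 2274 CPM with UNC1999, a ratio of 0.762.

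Leaving out 1 library at a time ended several of these calls. H2AFX was not called when DMSO replicate 1 was left out (edgeR adjusted p of 0.245), and it was not called after removal of DMSO replicate 2 (0.0685) or of UNC1999 replicate 1 (0.0702) or 3 (0.112). H3F3A was not called without the same 4 libraries (edgeR adjusted p of 0.0603, 0.224, 0.121 and 0.0537). H2AFV was not called without either DMSO library or UNC1999 replicate 1 (0.135, 0.118 and 0.120). For H3F3B the call ended when DMSO replicate 2 was absent (edgeR adjusted p of 0.0721), while H1FX, H2AFY and H2AFZ kept theirs without each library in turn. Without UNC1999 replicate 2, the library that stood apart, the same 7 genes were called, H2AFZ at -0.77 and H3F3B at -0.52 on the log2 scale.

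Most replication-dependent genes had higher values with UNC1999, but few passed the test. Of 68 members, 60 had at least 1 count and 30 were tested. edgeR called 7 higher (HIST1H1C, HIST1H1D, HIST1H1E, HIST1H2BH, HIST2H2BE, HIST2H3D and HIST4H4), which is 23.3% of those tested, beside 15.7% of all tested genes. None was called lower, beside 19.4% of all tested genes, and none was lower at an unadjusted p under 0.05. The DESeq2 Wald test called 2 higher (HIST1H1D and HIST1H1C) and 0 lower, and limma-voom 7 and 0. Over all genes DESeq2 called 12.8% higher and limma-voom 1977 of 13137. Groups did not overlap in 12 genes with all UNC1999 libraries above and in 1 with all below, beside 24.2% and 30.3% of all tested genes.

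A gene could pass the minimum of 10 counts through the libraries of 1 group alone. Among the tested genes, 5 passed only through UNC1999 libraries (HIST1H1B, HIST1H1E, HIST1H2BO, HIST1H3F and HIST2H3D), and none only through DMSO. In the 19 genes with 10 or more counts in all 5 libraries, 3 were called higher, near the 15.7% of all tested genes. Of these 19, 16 had a log2 fold change above 0, beside 6424 of all 13137 tested genes, and the median was 0.23. Over all 60 genes with any count, the mean level was higher with UNC1999 in 50, of which 24 were among the 30 untested genes. Some of those 24 had 1 or 2 counts in all, which fall more readily in 3 UNC1999 libraries than in 2 DMSO libraries. The same share over all genes was not computed, so this number only describes the members. The summed level of all 68 members was 366 and 445 CPM with DMSO and 487, 486 and 470 CPM with UNC1999, a ratio of 1.19. Those sums were 0.0349 to 0.0511% of all counts. The DMSO libraries differed from each other by more than DMSO replicate 2 differed from the UNC1999 libraries.

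**Figure D2:**
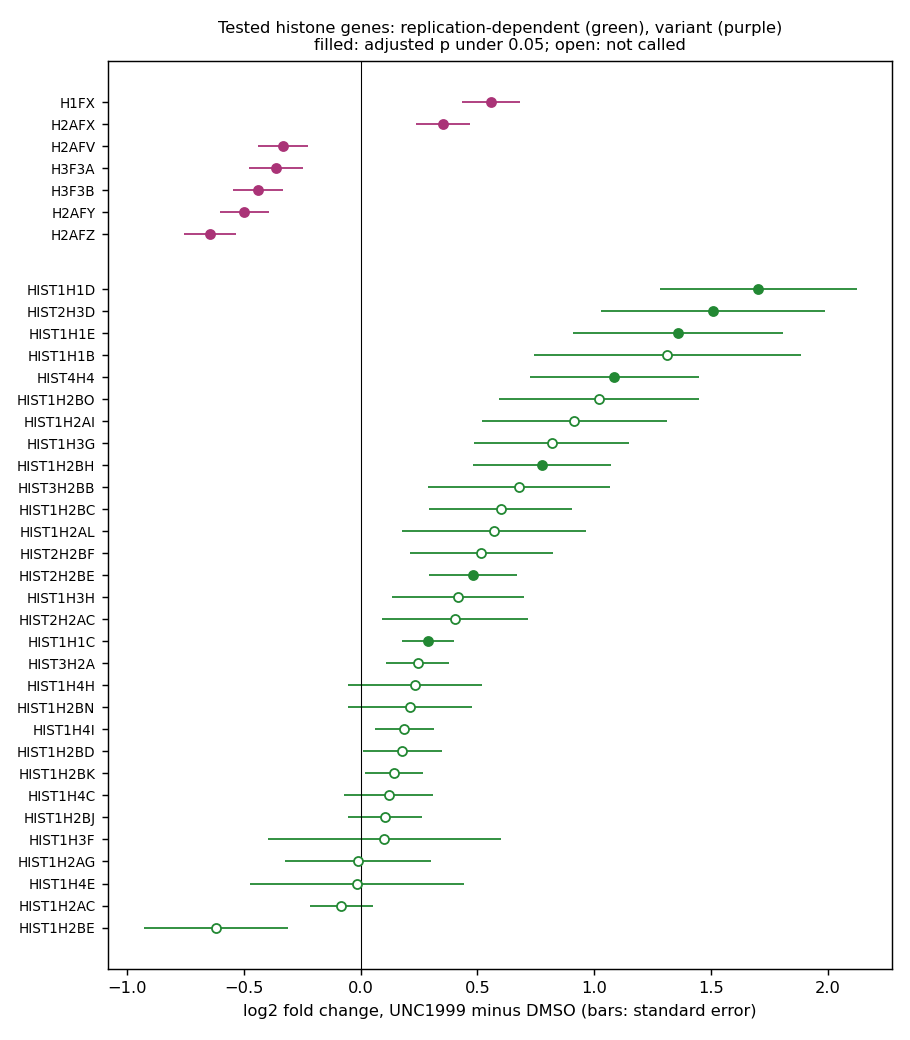
Log2 fold change of UNC1999 against DMSO (horizontal axis, with bars for the SE) for the 30 tested replication-dependent genes (green) and the 7 tested variant genes (purple), with filled points at an edgeR adjusted p under 0.05. Among the replication-dependent genes 26 points lie above 0 and 4 below, and the bars are widest for the genes with few counts.

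By family, the counts of calls below stand beside the same 15.7% of all tested genes called higher, and families of 4 to 11 tested genes give coarse shares. Linker histones of family H1 bind the DNA that enters and leaves the nucleosome. Of the 6 replication-dependent H1 genes, 5 had counts, 4 were tested and 3 were called higher (HIST1H1E through UNC1999 libraries alone). HIST1H1C (H1.2, chr6:26055787-26056428) had 1051 and 1276 counts with DMSO and 1619, 1506 and 1500 with UNC1999. The UNC1999 libraries all lay above both DMSO libraries, by a log2 fold change of 0.29 with an SE of 0.11 (edgeR adjusted p = 0.0397). The call was lost without any single library other than UNC1999 replicate 2 (edgeR adjusted p of 0.0609 to 0.411). This gene held 97.8 and 98.5% of the counts assigned to its family with DMSO and 93.3, 96.7 and 97.3% with UNC1999, a share that is not corrected for length.

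HIST1H1D (H1.3, chr6:26234268-26234933) had 12 and 9 counts in the DMSO libraries and 67, 21 and 24 in the UNC1999 libraries. The groups did not overlap, but replicate 1 of UNC1999 stood far above replicates 2 and 3. The fold change was 1.70 ± 0.42 on the log2 scale (SE, edgeR adjusted p = 0.00168), and without that library it was 0.97 (edgeR adjusted p = 0.0609). The call also ended without DMSO replicate 2 (0.0790). HIST1H1E (H1.4, chr6:26156354-26157107) had 6 and 8 counts with DMSO and 29, 19 and 11 with UNC1999. Its fold change was 1.36 ± 0.45 (SE, edgeR adjusted p = 0.0166), and without UNC1999 replicate 1 it was 0.97 (edgeR adjusted p = 0.136). Replicate 1 was again the highest library, and neither fit with a single DMSO library called the gene (edgeR adjusted p of 0.0845 and 0.164).

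HIST1H1B (H1.5) had 6 and 3 counts with DMSO and 20, 12 and 5 with UNC1999, so that the groups overlapped. Its fold change of 1.31 missed the threshold (edgeR adjusted p = 0.0717). Summed without HIST1H1C, the family was at 2.98 and 2.38 CPM with DMSO and at 13.2, 5.67 and 4.67 CPM with UNC1999. The testis gene HIST1H1T had 2 counts in all, and HIST1H1A was at 0.

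**Figure D3:**
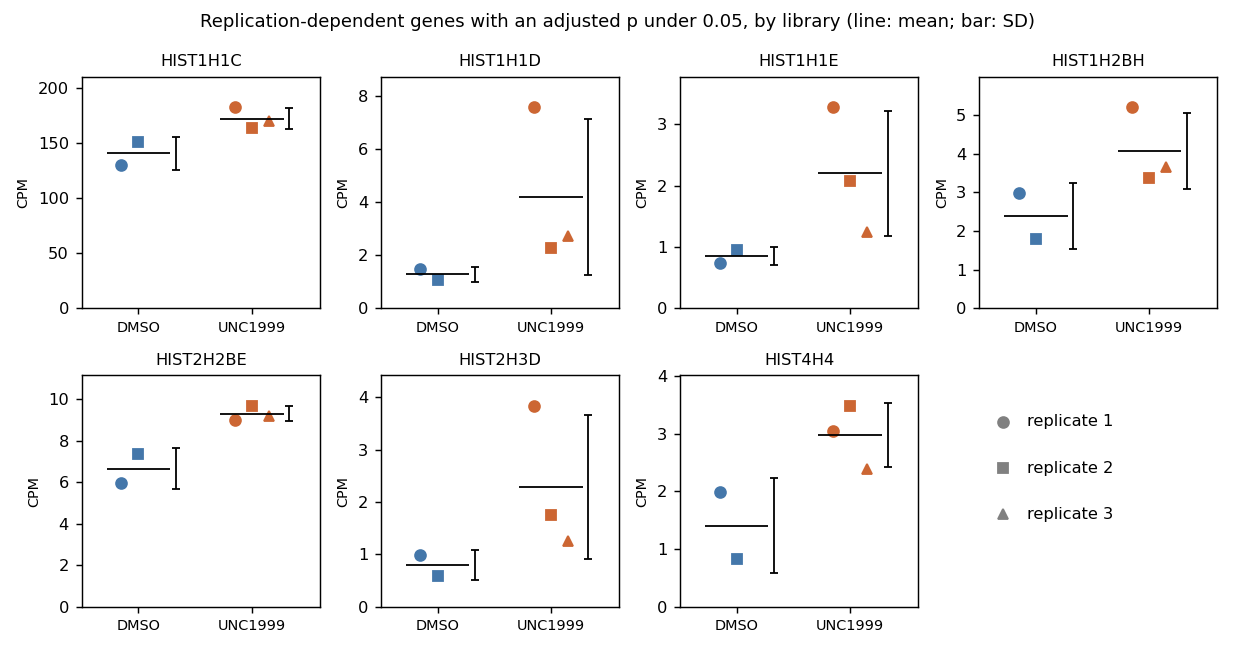
Level in CPM (vertical axis, from 0) of the 7 replication-dependent genes called higher, in each DMSO and UNC1999 library, with symbols for the replicates, a line at the mean and a bar for the SD. In HIST1H1D, HIST1H1E and HIST2H3D the highest point is UNC1999 replicate 1, whereas HIST1H1C and HIST2H2BE have UNC1999 libraries close to each other.

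In family H2A, whose proteins pair with H2B in the nucleosome, 15 of 17 genes had counts, 6 were tested and none was called. At an unadjusted p under 0.05 there was 1, HIST1H2AI, and the DESeq2 Wald test called none. HIST1H2AC was the most counted of them, with 300 and 461 counts with DMSO and 334, 438 and 396 with UNC1999. The UNC1999 values lay between the DMSO values, and the log2 fold change was -0.08 with an SE of 0.14 (edgeR adjusted p = 0.679). The other tested genes had log2 fold changes of -0.01 (HIST1H2AG), 0.24 (HIST3H2A), 0.40 (HIST2H2AC), 0.57 (HIST1H2AL) and 0.91 (HIST1H2AI, edgeR adjusted p = 0.0704). HIST1H2AI shared 62.3% of its 50-base stretches with HIST1H2AJ, so its counts are uncertain.

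Family H2B had counts in 17 of 18 genes, 11 tested and 2 called higher (18.2%). HIST2H2BE (chr1:149884459-149886652) had 48 and 62 counts with DMSO and 80, 89 and 81 with UNC1999. The UNC1999 libraries lay close together above both DMSO libraries, by a log2 fold change of 0.48 with an SE of 0.19 (edgeR adjusted p = 0.0442). The call lay near the threshold and was lost whichever of the 5 libraries was left out (edgeR adjusted p of 0.0555 to 0.327). HIST1H2BH (chr6:26251651-26253710) had 24 and 15 counts with DMSO and 46, 31 and 32 with UNC1999, with no overlap. Its fold change was 0.77 ± 0.30 (SE, edgeR adjusted p = 0.0388), and without DMSO replicate 2 it was 0.45 (edgeR adjusted p = 0.400). It was not called without UNC1999 replicate 1 either (0.57, edgeR adjusted p = 0.193).

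HIST1H2BK, the most counted H2B gene, had 402 and 584 counts with DMSO and 549, 657 and 565 with UNC1999. The groups overlapped and the log2 fold change was 0.14 with an SE of 0.12 (edgeR adjusted p = 0.396). This gene shared 74.1% of its 50-base stretches with other genes, mainly H2BFS, which had 1 count in all. HIST1H2BE had the lowest fold change among the replication-dependent genes, -0.62 (edgeR adjusted p = 0.117), with all UNC1999 libraries below DMSO. Of the others, HIST1H2BO had 1.02 (edgeR adjusted p = 0.0605), and HIST1H2BC, HIST1H2BD, HIST1H2BJ, HIST1H2BN, HIST2H2BF and HIST3H2BB ranged from 0.10 to 0.68, none of them called.

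H2A and H2B genes often stand head to head with a shared promoter region, and GENCODE placed 12 pairs of histone genes with starts within 500 bases. HIST2H2BE and HIST2H2AC start 323 bases apart. The first was called higher (0.48) and the second was not called (0.40, 120 counts in all). HIST1H2BC and HIST1H2AC, 219 bases apart, had 0.60 and -0.08, and HIST3H2A and HIST3H2BB, 234 bases apart, had 0.24 and 0.68, none called. Differences within pairs were not tested.

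Family H3, the substrate family of EZH2, had few counts in its replication-dependent genes: 9 of 12 had any, 4 were tested and 1 was called. The called gene, HIST2H3D, and HIST1H3F passed the minimum through UNC1999 libraries alone. HIST2H3D (chr1:149813271-149813681) had 8 and 5 counts with DMSO and 34, 16 and 11 with UNC1999. The groups did not overlap, with replicate 1 of UNC1999 the highest library, and the log2 fold change was 1.51 with an SE of 0.48 (edgeR adjusted p = 0.0126). It shared 80.4% of its 50-base stretches with copies, so this call is uncertain, and without UNC1999 replicate 1 it was 0.92 (edgeR adjusted p = 0.180). Nor was it called with either DMSO library left out (edgeR adjusted p of 0.0633 and 0.188). The near-identical genes HIST2H3A and HIST2H3C had 1 count and 0 counts in all. HIST1H3H, the most counted H3 gene, had 17 and 29 counts with DMSO and 28, 36 and 36 with UNC1999, which overlap. Its fold change was 0.42 ± 0.28 (SE, edgeR adjusted p = 0.261), while HIST1H3G had 0.82 (edgeR adjusted p = 0.0523) and HIST1H3F had 0.10.

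Family H4 had counts in 14 of 15 genes, with 5 tested and 1 called. HIST4H4 (chr12:14767999-14771131), which lies alone outside the main clusters, had 16 and 7 counts with DMSO and 27, 32 and 21 with UNC1999. The groups did not overlap, and the log2 fold change was 1.08 with an SE of 0.36 (edgeR adjusted p = 0.0175). Without DMSO replicate 2 it was 0.59 (edgeR adjusted p = 0.329), and without UNC1999 replicate 2 it was 0.96 (edgeR adjusted p = 0.0513). HIST1H4I, the most counted H4 gene, had 302 and 409 counts with DMSO and 402, 489 and 426 with UNC1999. The groups overlapped, and the fold change of 0.19 ± 0.13 missed the threshold (SE, edgeR adjusted p = 0.255). HIST1H4C, HIST1H4E and HIST1H4H had 0.12, -0.02 and 0.23, none called.

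By family, the summed level of H3 genes was 7.95 and 8.20 CPM with DMSO and 16.7, 13.0 and 11.2 CPM with UNC1999. For H4 it was 55.0 and 64.2 CPM against 66.5, 74.4 and 65.1 CPM. For H2B it was 99.3 and 126 CPM against 125, 137 and 127 CPM, and for H2A 70.2 and 92.2 CPM against 83.0, 91.3 and 90.7 CPM. The groups did not overlap in H1, H3 and H4, whereas in H2A and H2B they did, through DMSO replicate 2. By cluster, the ratio of UNC1999 to DMSO was 1.17 for HIST1, 1.52 for HIST2, 1.21 for HIST3 and 2.11 for the single gene HIST4H4.

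**Figure D4:**
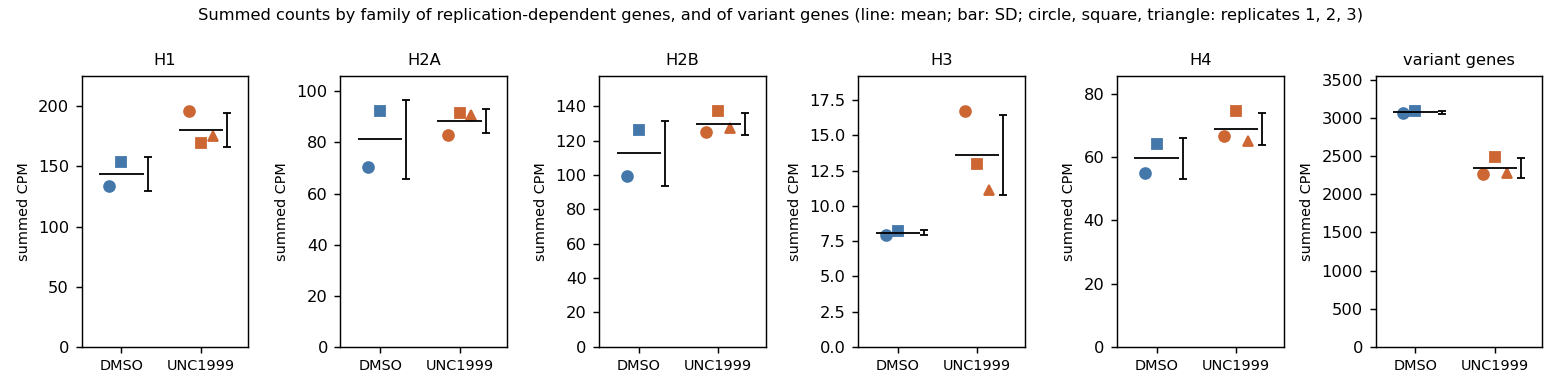
Summed level in CPM (vertical axes, each from 0 and on its own scale) of the replication-dependent genes of each family and of the variant genes, in every library, with a line at the mean and a bar for the SD. The variant sum lies lower with UNC1999 (2269 to 2489 CPM against 3064 and 3089 CPM), and the H1, H3 and H4 sums lie higher without overlap.

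The calls among replication-dependent genes rested on few counts and few libraries. Of the 7 called genes, 5 had a mean count under 50. Without DMSO replicate 2 none of the 30 tested genes was called, without UNC1999 replicate 1 only HIST4H4 was, and without DMSO replicate 1 there were 3 calls. Without UNC1999 replicate 2 there were 6, of which 5 were among the 7, and without UNC1999 replicate 3 there were 10, again with 5 of the 7. Calls higher over all genes also varied between these fits, with the range given below. The share of all genes in each fit is not given here, so these counts only describe the members. UNC1999 replicate 1 was the highest library in 15 of the 30 genes, replicate 2 in 8 and replicate 3 in 3. The same count over all tested genes was not made. In the 5 genes that passed the minimum only through UNC1999 libraries, the highest library was likely to be in that group. The 30 genes with counts too low to test had at most 16 counts in a library, and the summed level of untested members was 9.69 and 7.84 CPM with DMSO and 14.3, 13.5 and 11.9 CPM with UNC1999.

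Sequence shared between copies touches these values directly. In 17 replication-dependent genes at least 50% of the 50-base stretches of their transcripts occur in another gene, and 3 of these were tested (HIST1H2AI, HIST1H2BK and HIST2H3D). Of the 51 other genes, 27 were tested and 6 were called. No source used here gives how reads that map to several genes were counted. Of 16 pseudogenes, 9 had counts and 3 were tested (HIST1H1PS1 with a log2 fold change of 0.70, HIST2H2BD with 0.05 and HIST3H2BA with -0.58). None was called by edgeR or had an unadjusted p under 0.05.

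Correction for GC content and transcript length changed the values of several members. With offsets from the longest GENCODE transcript, 15 of the 30 replication-dependent genes were called higher and 0 lower by edgeR, beside 15.1% and 19.0% of the 11055 genes that have these values. Offsets from the principal transcript, an alternative added after the data were seen, gave 15 and 0 as well, beside 14.6% and 18.9%. HIST1H1D had 1.91 and 1.93 under these fits, HIST1H1C 0.36 and 0.38, HIST2H2BE 0.82 under both, and HIST1H4I 0.46 and 0.45, now called (edgeR adjusted p = 0.0003 and 0.000351). HIST1H2BH lost its call under both (0.65 and 0.62, edgeR adjusted p = 0.0974 and 0.112).

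Among the variant genes the correction depended on the transcript. H2AFV was at -0.36 with the longest transcript and at 0.03 with the principal one (edgeR adjusted p = 0.764). H3F3B was at -0.07 and -0.48, H2AFY at -0.70 and -0.27, H2AFZ at -0.28 and -0.40, and H3F3A at -0.56 and -0.68. H2AFX and H1FX were smaller under both, at 0.20 and 0.20 and at 0.40 and 0.41, and were still called. The longest transcript of H2AFV has 3804 bases and its principal transcript 752.

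**Figure D5:**
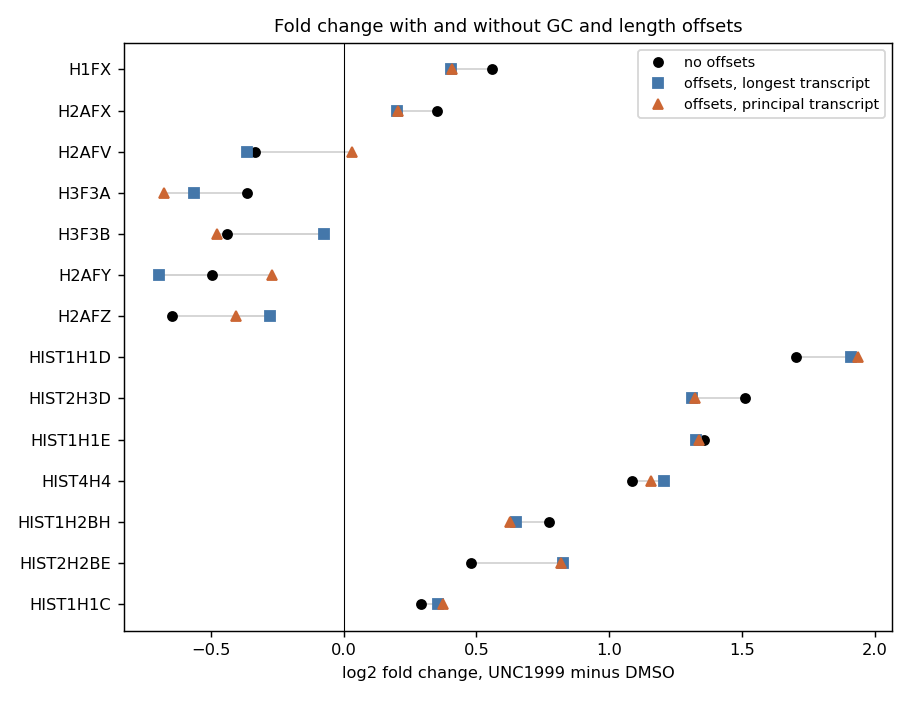
Log2 fold change of UNC1999 against DMSO (horizontal axis) for the 7 variant genes and the 7 replication-dependent genes called higher, without offsets and with GC and length offsets from the longest or the principal transcript. The replication-dependent genes stay above 0 in all 3 fits, whereas H2AFV lies at -0.33, -0.36 and 0.03 and H3F3B at -0.44, -0.07 and -0.48.

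Genes that make and process histone mRNA were described beside the members. Of 22 tested genes of transcription and 3′ end processing, 9 were called higher (40.9%) and 2 lower (9.1%), with a median log2 fold change of 0.11. Over all tested genes, here and for the lists that follow, 15.7% were called higher and 19.4% lower. SLBP, which binds the stem-loop, was at 211 and 233 CPM with DMSO and at 171, 196 and 168 CPM with UNC1999, and fell by 0.32 (SE 0.11, edgeR adjusted p = 0.0228). LSM11, a subunit of the U7 particle that directs the cut after the stem-loop, was at -0.41 ± 0.13 (SE, edgeR adjusted p = 0.0142). The smallest p among those that rose were those of ZCCHC11, a terminal uridylyltransferase (0.87 ± 0.12, edgeR adjusted p = 1.65e-06), and POU2F1, the octamer-binding factor OCT1 (0.82 ± 0.13, edgeR adjusted p = 6.69e-06).

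Chaperones deliver histones to DNA. Of 14 tested replication-coupled chaperone genes, 2 were called higher (14.3%) and 4 lower (28.6%), with a median of -0.04. SSRP1 and SUPT16H encode the 2 subunits of FACT, and their values went opposite ways: SSRP1 fell by 0.69 (SE 0.11, edgeR adjusted p = 4.36e-06) and SUPT16H rose by 0.53 (SE 0.11, edgeR adjusted p = 0.000221). NASP, a chaperone of soluble H3 and H4, had -0.48 (edgeR adjusted p = 0.000721), and MMS22L, which acts at damaged forks, had 1.06 (edgeR adjusted p = 1.73e-07). Of 9 tested genes on the list of H3.3 chaperones, 3 were called higher (33.3%) and 4 lower (44.4%), with a median of 0.10. Of those 4, HJURP serves the centromeric variant CENPA and not H3.3. ATRX (0.81) and UBN2 (0.85) rose, and UBN1 (-0.57) and SUPT6H (-0.50) fell. With GC and length offsets from either transcript none of this list was called higher.

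Of 15 tested genes for the exchange and removal of H2A.Z, 1 was called higher (MBTD1, 0.62) and 4 lower, with INO80 at -0.43 and TRRAP at -0.42 having the smallest p. Called either way were 33.3% of this list and 35.0% of all tested genes. Of 11 other variant histone genes, CENPA, the H3 variant of centromeres, was the only one tested. It was at 34.7 and 31.1 CPM with DMSO and at 23.8, 23.8 and 21.6 CPM with UNC1999, a log2 fold change of -0.51 with an SE of 0.13 (edgeR adjusted p = 0.00179), a call that was lost with GC and length offsets. Among 30 S phase genes, 3 were called higher and 12 lower (median -0.16), beside 15.7% and 19.4% of all genes. MCM4 (-0.85) and CDC25A (-0.70) fell, and POLA1 (0.60) and MCM6 (0.32) rose. Whether the share of cells in S phase has a part in the histone values was not tested.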

How the data were processed

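Total RNA from NK92MI cells was sequenced as 5 libraries. The deposited table holds raw counts of reads as whole numbers, with rows named by gene symbol, made by the authors. The tools named, per the submitters' processing notes, are fastp, STAR 2.7.9, HTSeq 0.13.5 and edgeR 3.34.0, with the build hg19. Annotation, strand setting, RNA selection and the handling of multiply mapped reads are not given in the sources used. Columns were matched to samples by name.

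Members and gene lists were chosen with earlier results of these data known. All rows with at least 10 counts in 2 of 5 libraries (13137) were fitted in R 4.3.3 with edgeR 4.0.16 (TMM, quasi-likelihood test, UNC1999 against DMSO, no covariate), with Benjamini-Hochberg adjustment over all of them and a threshold of 0.05. TMM factors were 0.953 to 1.05. CPM uses these factors, and an SE is the fold change divided by the square root of F. Named genes were all called members, all tested variant genes, the most counted gene of each family and, per list, the 2 smallest p in each direction.

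Positions and transcripts come from GENCODE 29 (GRCh38) and promoters from RefSeq; hg19 is the build in the submitters' notes, and no coordinate was converted. GC content and length were known for 84.2% of tested rows, and offsets were splines with 6 and 4 degrees of freedom. Alternatives were other scaling factors, filters and dispersions, DESeq2 1.42.0, limma 3.58.1 (voom), a replicate block, summed duplicate symbols and each library left out. On simulated counts for 13137 genes the edgeR steps called 87 of 100 genes changed 2-fold and 48 of 100 changed 1.5-fold. The changed genes were drawn at random from all tested genes, and no simulated library stood apart from its group. These shares therefore do not hold for the low counts of most replication-dependent members.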

Additional observations from a re-analysis of the deposited data

How the results depend on the processing

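Low counts and few libraries limit these results: 21 of the 30 tested replication-dependent genes had a mean count under 50. With 1 library left out, they gave 0 to 10 calls higher and 0 lower, and the variant genes 1 to 2 higher and 2 to 5 lower. Calls over all genes ranged from 1142 to 2858 higher and 1192 to 3034 lower. The ratio of summed levels ranged from 1.08 to 1.31 for replication-dependent and from 0.738 to 0.774 for variant genes. In the same fits, calls higher and lower ranged from 7 to 10 and 0 to 5 for mRNA processing, 2 to 4 and 2 to 6 for replication-coupled chaperones, 2 to 4 and 2 to 4 for H3.3 chaperones, 0 to 2 and 1 to 4 for H2A.Z exchange, and 1 to 7 and 7 to 15 for S phase genes. CENPA ranged from 0 to 1 call lower.

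Without normalization factors the median of all genes moved by 0.104 on the log2 scale. There 12 replication-dependent genes were higher (22.4% of all genes were) and 3 variant genes lower, with ratios of 1.28 and 0.820. H2AFV and H3F3A were the variant genes that lost their calls. Calls were 0 lower for mRNA processing, 4 higher for replication-coupled chaperones, 2 higher and 2 lower for H2A.Z exchange, and 5 higher for S phase genes. With upper-quartile factors the replication-dependent ratio was 1.24, with 1 mRNA processing gene lower and 2 H2A.Z genes higher. A stricter filter left 2 replication-dependent genes higher of 9 tested. The DESeq2 Wald test gave 2 of 30, beside 12.8% of all genes, with 1 mRNA processing gene lower.

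GC and length offsets from either transcript gave 15 replication-dependent genes higher, 4 mRNA processing genes lower, 0 H3.3 chaperone genes higher and 0 other variant genes lower. Those from the principal transcript also gave 0 H2A.Z genes higher, 5 S phase genes higher and a reversed value for H2AFV (0.0327). Why these values moved was not tested.

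Replicate numbers 1 and 2 are shared between the groups, and the deviations of same-numbered libraries from their group means correlated at 0.066 and 0.039. With 2 DMSO libraries, whose deviations mirror each other, this cannot show whether same-numbered samples were paired. Pairing is therefore unknown. With a replicate block, 1 replication-dependent gene was lower (HIST1H2BE, edgeR adjusted p = 0.0440), 1 variant gene higher and 1 mRNA processing gene lower. Replication-dependent genes called higher were then 10, among them 5 of the 7 called without it. Over all tested genes this fit called 14.4% higher and 16.3% lower. UNC1999 replicate 3 had no DMSO library in its block and so did not enter the fold changes. HIST1H1C (edgeR adjusted p = 0.0669), HIST2H2BE (0.0556) and H2AFX (0.103) were not called. With the replicate block and offsets together, 14 replication-dependent genes were higher, variant genes gave 1 higher and 3 lower, mRNA processing 4 higher, H3.3 chaperones 0 higher, other variant genes 0 lower and S phase genes 6 lower, and over all genes 1101 were higher and 1551 lower.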

Other observations

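NPAT, the coactivator that sits at the replication-dependent histone clusters, was at 11.1 and 7.96 CPM with DMSO and at 13.6, 14.5 and 14.0 CPM with UNC1999. It was called higher, by 0.56 ± 0.17 on the log2 scale (SE, edgeR adjusted p = 0.00846). HJURP, the chaperone of the centromeric H3 variant CENPA, was called lower (-0.36 ± 0.11, SE, edgeR adjusted p = 0.00988), as CENPA was. Both genes were picked here after their values had been seen.

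Of the replication-dependent genes, 8 had no count in any library: HIST1H1A, HIST1H2AA, HIST1H2AE, HIST1H2BA, HIST1H3D, HIST2H3C, HIST3H3 and HIST1H4G. HIST1H3D and HIST2H3C share all 50-base stretches of their transcripts with other genes, so a count of 0 in them does not bound their level.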
